A study of Mus musculus with 4 samples.

Results

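The 8 genes described here carry iron into cells, store it, export it, sense it, or prepare the lipids that iron oxidizes in ferroptosis. They are the ferritin chains Fth1 and Ftl1, the importers Tfrc and Slc11a2, the exporter Slc40a1, the iron regulatory proteins Aco1 and Ireb2, and the acyl-CoA synthetase Acsl4. The rule names the genes and uses no value, but the genes were listed with earlier results of these data known. All 8 were found among the 54446 genes of the table, and all 8 were among the 17787 genes detected in each of the 4 libraries (FPKM above 0). FPKM counts the fragments on a gene for each kilobase of its exons and scales them to the library's total. mRNA was sequenced from mammary epithelial cells of wild-type C57BL/6 mice, sorted as basal or luminal and grown in 3D culture in Matrigel with DMSO, the solvent control, or with 100 μM baicalin, a flavone glycoside of the plant Scutellaria baicalensis. The labels give 4 groups, basal cells with DMSO, basal cells with baicalin, luminal cells with DMSO and luminal cells with baicalin, with 1 library in each. All groups carry the same wild-type genotype, and the culture medium of the study's 3D assays held a supplement of insulin, transferrin and selenium, so every group was supplied with the iron carrier transferrin. The sort used antibodies to CD31, CD45 and TER119, which mark endothelial cells, leukocytes and erythroid cells. Primary cells in the study came from young virgin females or from females at other stages, without a stage for these libraries, and the number of animals behind a library and the days in culture before harvest are not given in the sources used here.

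Between 19350197 and 20644300 fragments were counted per library, so 1 fragment on 1 kb of exon was worth about 0.05 FPKM. With 1 library per condition there is no replicate check and no test between conditions, and a 95% interval on a ratio is an exact Clopper-Pearson interval of the fragment counts that covers counting error only. A log2 change is that of FPKM + 1, so changes of weakly expressed genes are understated, and the threshold was a log2 change of 1 in either direction. The cell type markers went against the labels. All 10 basal markers, among them Krt5, Krt14 and Acta2, were higher in the libraries labelled luminal, with DMSO and with baicalin. Of 10 luminal markers, 9 were lower in the library labelled luminal with DMSO, and all 10 were lower with baicalin. The exception was Foxa1, at 1.80 FPKM under the basal label and 9.30 FPKM under the luminal label with DMSO. Within counting error were Kit with DMSO, at a luminal to basal ratio of 0.965 (0.889 to 1.05), and Foxa1 with baicalin, at 0.810 (0.588 to 1.11). The markers also moved with treatment. Summed FPKM of the 10 basal markers was 1761 with DMSO and 479.4 with baicalin under the basal label, and 5404 and 7199 under the luminal label. For the 10 luminal markers it was 4131 and 2545 under the basal label, and 1316 and 1012 under the luminal label. Taken singly, 9 of the 10 basal markers were lower with baicalin under the basal label. Under the luminal label 5 of them were higher and 5 lower, with a median log2 change of -0.16, so the higher sum there does not describe the whole list. The libraries are therefore called by their labels, and a comparison between labels is a comparison of these libraries and not of cell types. Since bulk RNA was measured, fewer cells of a type and less RNA per cell cannot be told apart.

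Iron bound to transferrin enters cells through the transferrin receptor and leaves the endosome through Slc11a2. In the cytosol it is used, stored inside the ferritin shell of heavy and light chains, or exported by ferroportin, which Slc40a1 encodes. When iron is low, the iron regulatory proteins bind stem-loops in mRNA called iron-responsive elements. Binding in the 5′ UTR blocks translation, as for ferritin and ferroportin, and binding in the 3′ UTR protects the mRNA from decay, as for Tfrc. The level of an mRNA is therefore not the level of its protein for these genes. Ferroptosis is a form of cell death in which iron drives the oxidation of polyunsaturated phospholipids. Ferritin limits it by holding iron, and Acsl4 favours it by supplying the lipids.

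The stem-loops are shown because they mark which of the 8 genes held a match to 1 strict form of the element, and in which UTR. The search asked for an unpaired C, 5 bases of a stem, the loop CAGTGN with A, C or T at its last base, and 5 bases that pair with the stem, G-T pairs allowed, in annotated UTRs of GENCODE mouse release 21 on GRCm38. A 5′ UTR match was found in Fth1 (chr19:9982732-9982760, plus strand), in Ftl1 (chr7:45459779-45459807, minus strand) and in Slc40a1 (chr1:45925465-45925493, minus strand). The 3′ UTR of Tfrc held 4 matches on the plus strand, named 1 to 4 in their order along the transcript, at chr16:32631219-32631247, chr16:32631598-32631626, chr16:32631663-32631691 and chr16:32631710-32631738. Each window of 29 bases is given as DNA letters of the transcript strand from 5′ to 3′, with the 6 bases of the loop in capitals.
Fth1: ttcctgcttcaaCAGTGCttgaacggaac
Ftl1: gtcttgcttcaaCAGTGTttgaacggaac
Slc40a1: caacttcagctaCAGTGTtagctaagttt
Tfrc 1: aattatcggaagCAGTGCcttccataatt
Tfrc 2: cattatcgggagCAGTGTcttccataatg
Tfrc 3: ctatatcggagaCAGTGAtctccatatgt
Tfrc 4: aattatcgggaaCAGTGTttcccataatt
The windows of Fth1 and Ftl1 were the same at 26 of 29 bases and differed at 3. The loop began at base 99 of a 929-base coding transcript of Fth1, at base 90 of 968 in Ftl1 and at base 102 of 3370 in Slc40a1. In Tfrc the 4 loops began at bases 3327, 3706, 3771 and 3818 of 4890. Such a match stood in the 5′ UTR of 23 of 20916 genes with one (0.11%) and in the 3′ UTR of 100 of 21707 genes (0.461%). A match is a description of letters and not of binding. The matches stood in 4 of the 5 annotated coding transcripts of Fth1, 1 of 2 of Ftl1, 1 of 4 of Slc40a1 and 1 of 3 of Tfrc. FPKM per gene does not tell these transcripts apart. In the UTRs of Slc11a2, Aco1, Ireb2 and Acsl4 these letters were not found, which says nothing about elements of another form.

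**Figure D1:**
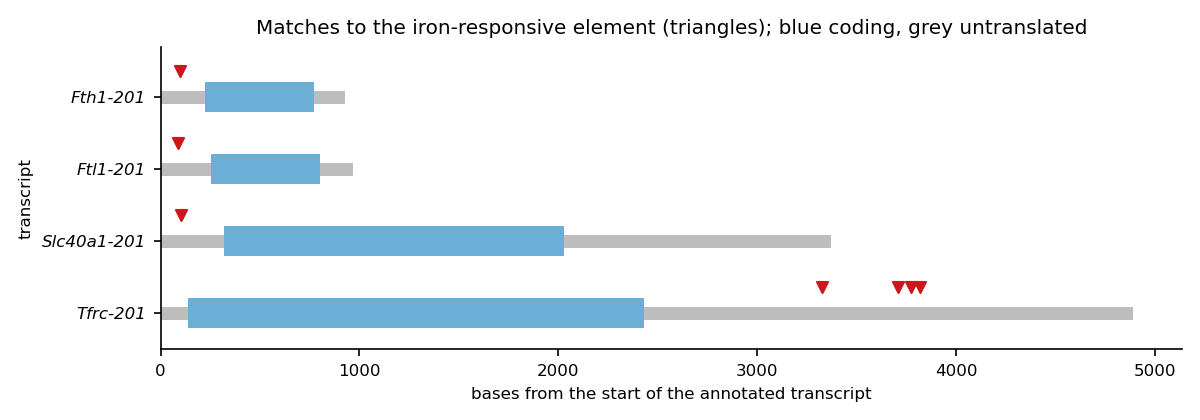
Positions of the stem-loop matches along 1 coding transcript each of Fth1, Ftl1, Slc40a1 and Tfrc, in bases from the transcript's 5′ end, with UTRs and coding sequence drawn to scale. The single matches of Fth1, Ftl1 and Slc40a1 lie in the 5′ UTR near the start, and the 4 matches of Tfrc lie in the 3′ UTR.

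Ferritin mRNA was higher with baicalin under both labels, and by more in the libraries labelled basal. In the baicalin library labelled basal, markers of the basal layer were lower as well, with Krt5 at 128 FPKM with DMSO and 3.01 FPKM with baicalin and Trp63 at 6.01 and 0.305 FPKM, and 9 of 10 luminal markers were lower under each label. The part of these marker differences in the ferritin values was not tested. In the libraries labelled basal Fth1 and Ftl1 were the 2 of 8 genes past the threshold. Across all genes tested, 5.48% were past it in either direction and 2.15% were higher by more than 1. At least 1 library with 5 FPKM or more, which all 8 genes had, was reached by 9154 genes, and of these well-expressed genes 8.23% were past it. In the libraries labelled luminal 2 of 8 genes were past the threshold, Fth1 and Slc40a1, both higher, against 3.95% of all genes in either direction, 2.37% higher, and 6.06% of the well-expressed genes in either direction. These shares of all genes depend on the pseudocount of 1 FPKM. With none, 21.1% of all genes passed under the basal label and 17.4% under the luminal label, and 2 of the 8 genes under each.

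Fth1 (ENSMUSG00000024661, GRCm38 chromosome 19, 9980598 to 9985098, plus strand) encodes the heavy chain, which oxidizes iron as it enters the shell. In the libraries labelled basal it was at 1078 FPKM with DMSO and 3776 FPKM with baicalin. Under the luminal label it was at 1516 FPKM with DMSO and 3062 FPKM with baicalin. Both baicalin libraries lay above both DMSO libraries, and the label with the lower level in DMSO had the higher level in baicalin. The baicalin to DMSO ratio was 3.50 (95% interval 3.47 to 3.53) under the basal label, a log2 change of 1.81. Under the luminal label the ratio was 2.02 (2.01 to 2.04), a log2 change of 1.01, just past the threshold. The log2 change was 0.79 smaller under the luminal label, and this difference has no replicate check. Between 74231 and 265593 fragments lay behind these values, so counting error is small beside them.

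Ftl1 (ENSMUSG00000050708, chromosome 7, 45457944 to 45459884, minus strand) encodes the light chain, which helps the iron core to form. It was at 744 FPKM with DMSO and 2194 FPKM with baicalin under the basal label, and at 577 FPKM and 1145 FPKM under the luminal label. As for Fth1, both baicalin libraries lay above both DMSO libraries. The ratio was 2.95 (2.90 to 3.00) under the basal label, a log2 change of 1.56. Under the luminal label the log2 change was 0.99 and fell just short of the threshold, so the count of 2 genes there does not separate Ftl1 from Fth1.

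**Figure D2:**
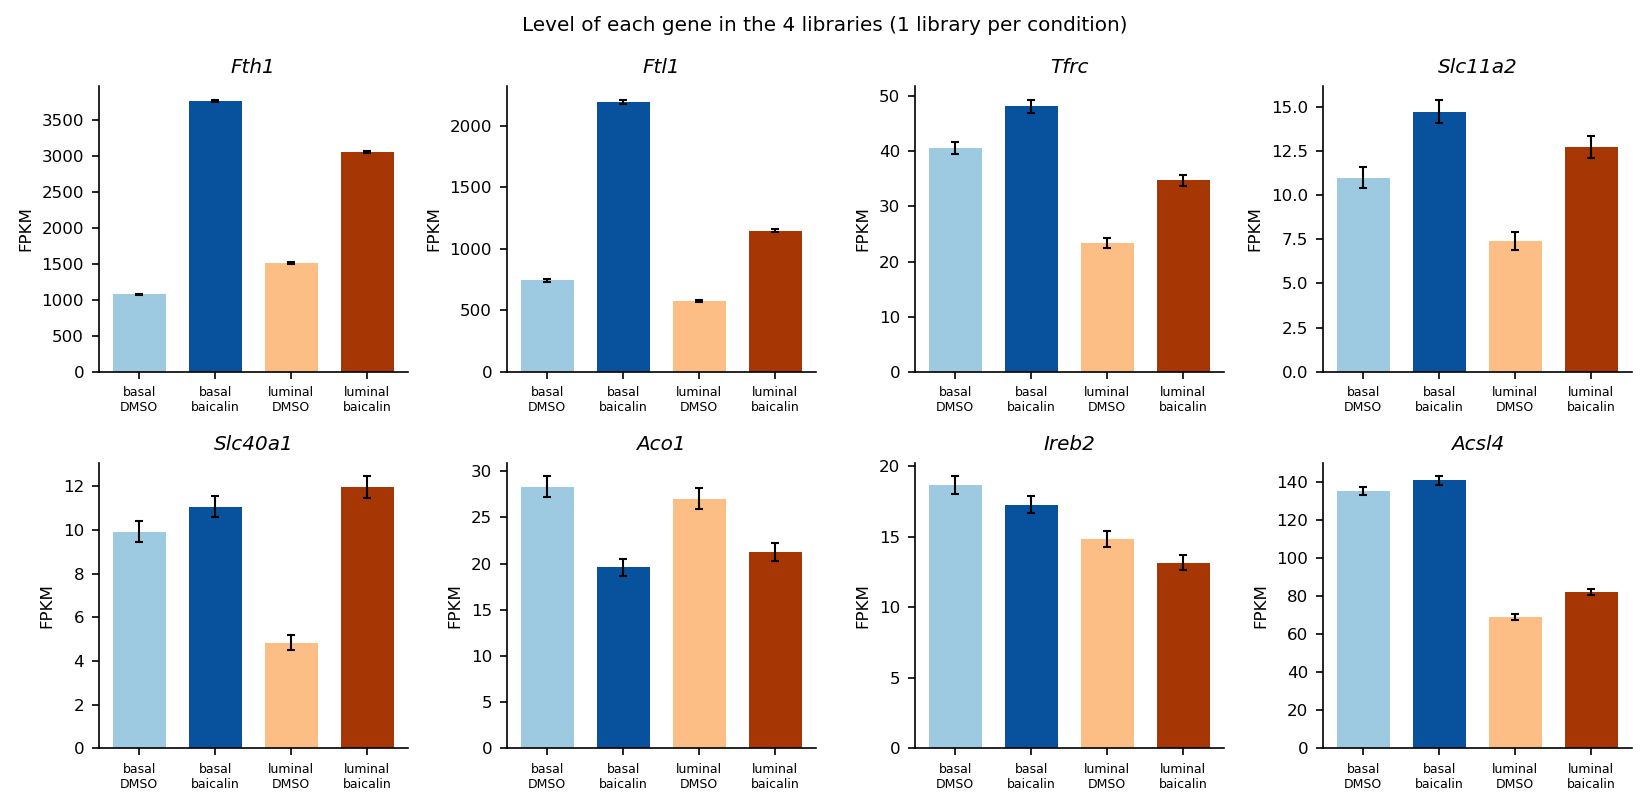
FPKM of each of the 8 genes in the 4 libraries, 1 panel per gene with its own axis from 0, with error bars for the exact 95% Poisson interval of the fragment count, which covers counting error only. Fth1 and Ftl1 are higher in both baicalin libraries than in both DMSO libraries, and Acsl4 separates by label, with 135 and 141 FPKM under the basal label and 68.9 and 81.9 FPKM under the luminal label.

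Together the 2 ferritin genes took 0.474% of all counted fragments in the DMSO library labelled basal and 1.60% in the baicalin library. In the libraries labelled luminal their share was 0.603% with DMSO and 1.22% with baicalin. Ranked by FPKM among protein-coding genes, Fth1 moved from place 14 to place 3 under the basal label and from place 11 to place 6 under the luminal label. Ftl1 moved from place 23 to place 7 and from place 41 to place 19. Fth1 exceeded Ftl1 in every library. The ratio of their FPKM, which is per length, was 1.45 and 1.72 under the basal label and 2.63 and 2.67 under the luminal label, in the order DMSO and baicalin. The balance of the chains thus differed more between labels than between treatments in these libraries. The exon lengths behind these ratios, 3469 bases for Fth1 and 1340 for Ftl1, join the exons of all transcripts, while that coding transcript of Fth1 has 929 bases, so the FPKM of Fth1 is low for the length of that mRNA and the ratio of the chains depends on the length used. In fragments, with no length correction, the ratio was 3.75, 4.45, 6.80 and 6.92 in the same order of libraries.

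**Figure D3:**
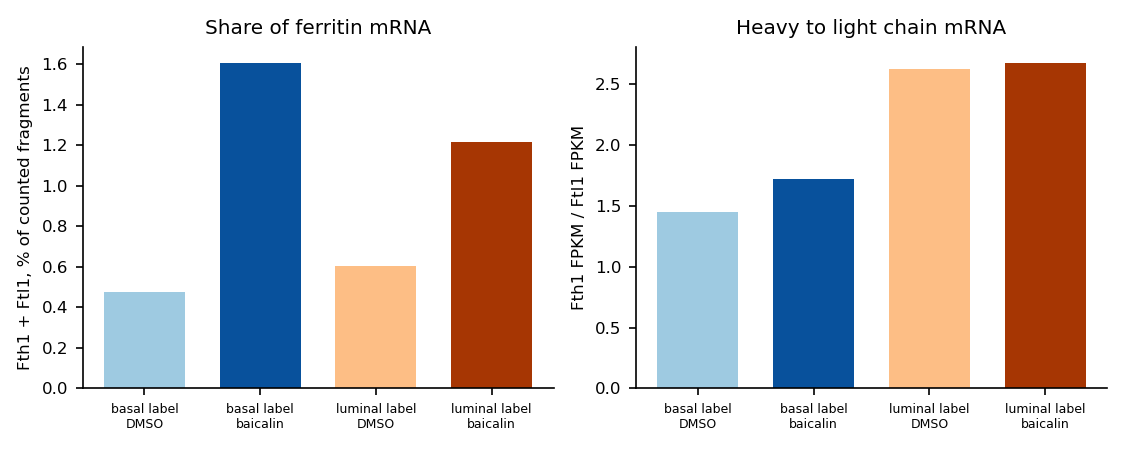
Bars from 0 for each library, with the share of counted fragments on Fth1 and Ftl1 in percent on the left and the ratio of Fth1 FPKM to Ftl1 FPKM on the right. The share is higher in both baicalin libraries (1.60% and 1.22%) than in both DMSO libraries (0.474% and 0.603%), and the ratio is higher under the luminal label (2.63 and 2.67) than under the basal label (1.45 and 1.72).

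Ferritin genes have processed copies elsewhere in the genome, and reads can be split among them. Of the near-identical copies found, the most abundant was Ftl1-ps1, 99.6% identical to Ftl1 over 910 bases. It was at 2.43, 12.2, 2.66 and 5.07 FPKM in the order basal DMSO, basal baicalin, luminal DMSO and luminal baicalin. Its order across the libraries was that of Ftl1 except that luminal DMSO stood above basal DMSO. Adding the fragments of the copies gave Ftl1 log2 changes of 1.56 and 0.99, and for Fth1, whose 1 copy Gm6977 had at most 0.57 FPKM, 1.81 and 1.01. The sum holds only fragments already counted on a copy. It cannot recover reads left uncounted because they fit a gene and its copy equally. How such reads were treated is not given in the sources used here, and any loss would also enter the ratio of the chains. The other 6 genes had no copy by this measure. Ftl1 also overlaps Gm10252 on the opposite strand over 355 of its 1340 exon bases, but Gm10252 had at most 0.0621 FPKM.

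The importers were higher with baicalin in both labels without passing the threshold. Tfrc (ENSMUSG00000022797, chromosome 16, 32608920 to 32632794, plus strand), the transferrin receptor, was at 40.6 FPKM with DMSO and 48.2 FPKM with baicalin under the basal label, and at 23.3 and 34.7 FPKM under the luminal label. Both libraries labelled basal lay above both labelled luminal. The baicalin to DMSO ratio was 1.19 (1.14 to 1.23) and 1.49 (1.42 to 1.56), with log2 changes of 0.24 and 0.56. Tfrc and ferritin, whose elements stand in opposite UTRs, were thus higher with baicalin under both labels at the level of mRNA.

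Slc11a2 (ENSMUSG00000023030, chromosome 15, 100387898 to 100425072) carries ferrous iron across membranes. It was at 10.97 FPKM with DMSO and 14.7 FPKM with baicalin under the basal label, and at 7.39 and 12.7 FPKM under the luminal label. The baicalin libraries were the 2 highest. The ratios were 1.34 (1.25 to 1.44) and 1.72 (1.58 to 1.86), with log2 changes of 0.39 and 0.71. An overlap with Gm5475 on the opposite strand covers 402 of its 6354 exon bases, and Gm5475 had at most 0.0150 FPKM.

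Slc40a1 (ENSMUSG00000025993, chromosome 1, 45908068 to 45926523, minus strand) encodes ferroportin, the exporter of iron. Its level was 9.92 FPKM with DMSO and 11.1 FPKM with baicalin under the basal label, and 4.84 and 11.97 FPKM under the luminal label. One library stood low, the DMSO library labelled luminal, and the other 3 lay between 9.92 and 11.97 FPKM. The ratio was 1.12 (1.05 to 1.19) under the basal label and 2.47 (2.28 to 2.68) under the luminal label, the latter a log2 change of 1.15 and the largest of the 8 genes there. With 844 fragments, the low value rests on the fewest of any value of the 8 genes. The summed level of 10 macrophage and leukocyte markers, cells that are rich in ferroportin, was 86.0 and 97.6 FPKM under the basal label and 15.9 and 24.8 FPKM under the luminal label. Of these markers 4 were above 0 in all libraries, and they moved in different directions with baicalin. Cd68 was at 7.49 and 51.5 FPKM under the basal label and at 4.44 and 13.7 FPKM under the luminal label, past the threshold in both. Cd14 was at 68.9 and 43.9 FPKM and at 10.4 and 8.41 FPKM, Lyz2 at 8.84 and 2.17 FPKM and at 0.903 and 2.61 FPKM, and Csf1r at 0.340 and 0.0908 FPKM and at 0.0317 and 0.0496 FPKM, in the same order. The leukocyte marker Ptprc had at most 0.0138 FPKM. The sum of 8 erythroid markers was at most 0.191 FPKM, with the adult globin genes listed at 0. The part of other cell types in the level of Slc40a1 was not tested.

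The iron regulatory proteins were the 2 genes lower with baicalin under both labels. Aco1 (ENSMUSG00000028405, chromosome 4, 40143081 to 40198338) encodes iron regulatory protein 1, which turns into cytosolic aconitase when it holds an iron-sulfur cluster. It was at 28.4 FPKM with DMSO and 19.6 FPKM with baicalin under the basal label, and at 27.1 and 21.3 FPKM under the luminal label. Both DMSO libraries lay above both baicalin libraries, which is the reverse of ferritin. The ratios were 0.691 (0.650 to 0.734) and 0.786 (0.740 to 0.835), with log2 changes of -0.51 and -0.33. The 2 DMSO libraries did not differ beyond counting error, with a luminal to basal ratio of 0.954 (0.901 to 1.01).

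Ireb2 (ENSMUSG00000032293, chromosome 9, 54863789 to 54912530) encodes iron regulatory protein 2, which is degraded when iron is plentiful. It was at 18.7 FPKM with DMSO and 17.3 FPKM with baicalin under the basal label, and at 14.8 and 13.2 FPKM under the luminal label. Its levels were ordered by label more than by treatment. The ratios with baicalin were 0.926 (0.883 to 0.971) and 0.887 (0.840 to 0.936), beyond counting error but with log2 changes of only -0.11 and -0.16. Fbxl5, the iron-sensing ubiquitin ligase that marks Ireb2 protein for decay, was at 10.9 and 15.5 FPKM under the basal label and at 8.09 and 8.80 FPKM under the luminal label.

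Acsl4 (ENSMUSG00000031278, chromosome X, 142317993 to 142390535) joins arachidonic and related polyunsaturated acids to coenzyme A, the step that leads them into membrane lipids. It was at 135 FPKM with DMSO and 141 FPKM with baicalin under the basal label, and at 68.9 and 81.9 FPKM under the luminal label. Its baicalin to DMSO ratios were 1.04 (1.02 to 1.07) and 1.19 (1.15 to 1.23), with log2 changes of 0.06 and 0.25. The luminal to basal ratio was 0.511 (0.496 to 0.525) with DMSO and 0.582 (0.568 to 0.598) with baicalin. Acsl4 thus differed between labels by more than with treatment in these libraries.

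**Figure D4:**
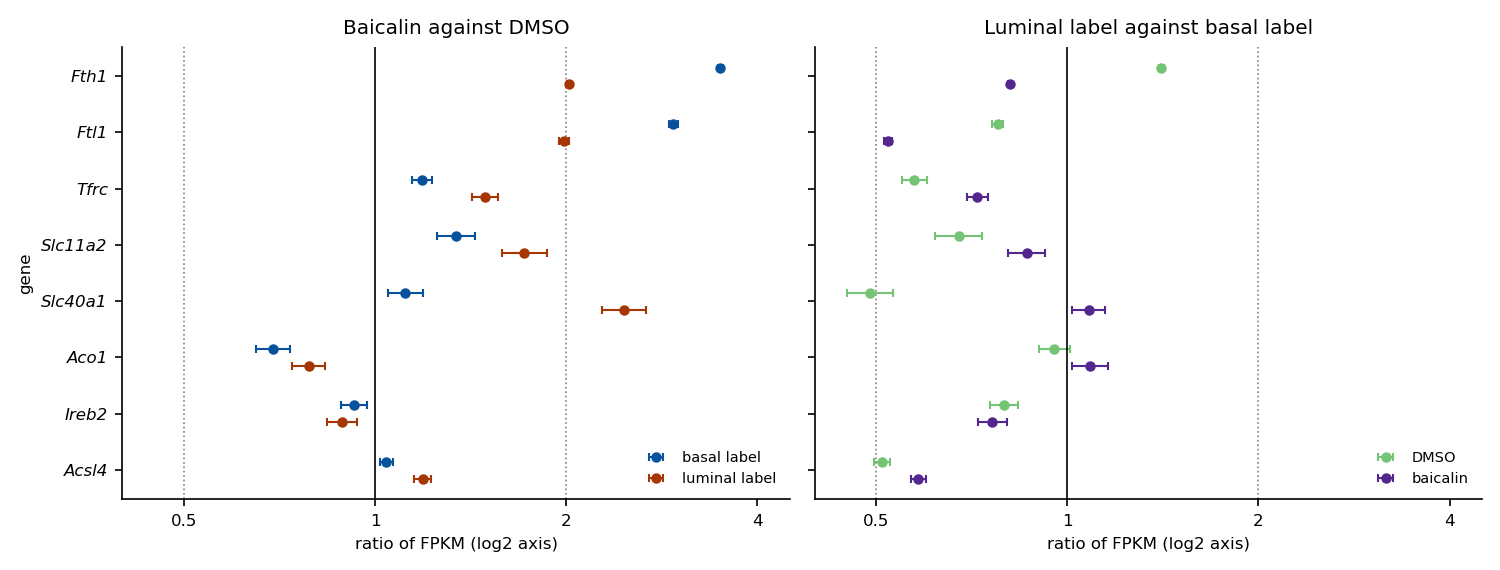
Ratio of FPKM on a log axis for each of the 8 genes, in the comparisons of baicalin with DMSO and of the luminal with the basal label, with bars for the exact 95% interval of the fragment counts. Fth1 and Ftl1 are the highest under the basal label (3.50 and 2.95), Slc40a1 is the highest under the luminal label (2.47), and Aco1 and Ireb2 lie below 1 with baicalin under both.

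Across the 8 genes, 6 were higher and 2 lower with baicalin under each label, and the same 2, Aco1 and Ireb2, were the lower ones. Among the 17787 genes tested, 9057 were higher under the basal label and 8115 under the luminal label. All these differences of the 8 genes exceeded counting error. The share of all genes that did so is not given here, and intervals are narrow at such fragment counts. The median log2 change of the 8 was 0.19 under the basal label and 0.63 under the luminal label, against 0.01 and -0.02 for all genes tested. For the 2 ferritin chains the change was larger under the basal label, and for Tfrc, Slc11a2, Slc40a1 and Acsl4 it was larger under the luminal label. These differences between labels have no replicate check.

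Between labels none of the 8 genes passed the threshold, with DMSO (8.56% of all genes did, 11.9% of the well-expressed genes) or with baicalin (8.23% and 11.5%). With DMSO, 7 of the 8 were lower in the library labelled luminal, 6 of them beyond counting error and Aco1 within it. Fth1 was higher, at a ratio of 1.41 (1.39 to 1.42). Of the 17787 genes tested, 8447 were lower. The median log2 difference was -0.44, against 0.01 for all genes. Acsl4 and Slc40a1 were closest to the threshold, with log2 differences of -0.96 and -0.90, and for Slc40a1 the plain ratio was 0.488 (0.450 to 0.531). With baicalin, 6 were lower in the library labelled luminal, against 9741 of the 17787 genes tested. Slc40a1 and Aco1 were higher at ratios of 1.08 (1.02 to 1.15) and 1.09 (1.02 to 1.16). The median was then -0.34, against -0.03 for all genes. Ftl1 had the largest difference, with a luminal to basal ratio of 0.522 (0.515 to 0.529). These comparisons share libraries with those of baicalin and DMSO, so their values are not independent of them.

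The wider pathway was described with 101 genes in 8 lists, of which 95 were above 0 in all libraries. Under the basal label 13 were higher by more than 1 with baicalin and 2 lower, and under the luminal label 9 were higher and 1 lower, which is 15.8% and 10.5% of them. Of all genes tested, 2.15% were higher and 3.33% lower by more than 1 under the basal label, and 2.37% and 1.59% under the luminal label. The lists were written with earlier results of these data known, so this comparison with all genes is not independent of the data. It also depends on the pseudocount. With none, 20% and 15.8% of the pathway genes were past the threshold, against 21.1% and 17.4% of all genes. Among the 76 well-expressed pathway genes, at the pseudocount of 1 FPKM, 19.7% and 11.8% were past it. Of all well-expressed genes, 8.23% and 6.06% were. The medians of the 95 genes were 0.08 and 0.01. Of the 16 genes past the threshold under either label, 8 were higher by more than 1 under both, namely Hmox1, Slc48a1, Cyb5r1, Ptgs2, Chac1, Slc7a11, Gclc and Nqo1, and Steap4 was lower by more than 1 under both. The share of all genes past the threshold under both labels is not given here, so this overlap is a description only.

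None of the 3 tested genes that load or release ferritin iron passed the threshold. Ncoa4, the receptor that carries ferritin to lysosomes, and the iron chaperones Pcbp1 and Pcbp2, which load it, had log2 changes between -0.24 and 0.01 under both labels. Ncoa4 itself was at 5.87 and 5.64 FPKM under the basal label and 4.998 and 5.01 FPKM under the luminal label. It has a near-identical copy, and its summed changes were -0.02 and 0.02. Higher ferritin mRNA was thus not matched by a difference of like size in the mRNA of the ferritinophagy receptor.

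Of 12 tested genes for uptake and reduction, 7 were higher and 5 lower under the basal label, and 6 and 6 under the luminal label. All genes tested were split 9057 higher and 8728 lower under the basal label, and 8115 and 9670 under the luminal label. Steap4, a metalloreductase, fell from 14.6 to 5.75 FPKM and from 24.8 to 10.9 FPKM. Among the others, Steap1 had log2 changes of 0.57 and 0.95 and Hfe, which binds the transferrin receptor, 0.70 and 0.44. Slc39a14, an importer of iron not bound to transferrin, had -0.23 and -0.68. Of 4 tested export genes none was past the threshold, and the largest changes were those of Prom2, which is linked to the release of ferritin in vesicles, at 0.66 and 0.83. Of the 3 sensing genes none was past it, and Hif1a had changes of 0.55 and 0.73.

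Among 16 mitochondrial and iron-sulfur cluster genes, 9 were higher and 7 lower under the basal label and 5 and 11 under the luminal label. For all genes tested the counts were 9057 and 8728, and 8115 and 9670. Hscb, a cochaperone of cluster transfer, rose from 4.45 to 16.3 FPKM under the basal label and was at 6.05 and 8.94 FPKM under the luminal label. Slc25a37, mitoferrin 1, which brings iron into mitochondria, was at 40.9 and 71.5 FPKM and at 19.3 and 33.8 FPKM, log2 changes of 0.79 and 0.78 that stayed below the threshold.

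In the heme list, the genes past the threshold belonged to breakdown and transport. The synthesis genes Alas1, Alas2, Alad, Uros, Urod, Cpox, Ppox and Fech did not pass it, although Cpox stood at 0.99 under the luminal label. Hmox1, heme oxygenase 1, which opens the heme ring and frees its iron, rose from 29.7 to 172.5 FPKM under the basal label and from 46.9 to 159.9 FPKM under the luminal label. Slc48a1, which carries heme out of lysosomes, rose from 34.1 to 139 FPKM and from 30.7 to 82.5 FPKM. Blvrb, a biliverdin reductase, rose from 2.10 to 11.4 FPKM under the basal label and was at 7.37 and 11.1 FPKM under the luminal label. Hmox2, the constitutive form, was between 18.9 and 20.4 FPKM in all 4 libraries.

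Among 21 genes for ferroptosis lipids and their oxidation, 8 were higher and 13 lower under the basal label, and 11 and 10 under the luminal label, with medians of -0.15 and 0.07. For all genes tested the counts were 9057 and 8728, and 8115 and 9670, with medians of 0.01 and -0.02. The acyl-CoA synthetases Acsl1, Acsl3 and Acsl5, of the family of Acsl4, stayed below the threshold, and so did Lpcat3, which places the acyl chains made by Acsl4 into phospholipids, at -0.33 and -0.17. Fads2, a desaturase of polyunsaturated fatty acid synthesis, fell from 108 to 48.4 FPKM under the basal label and was at 154 and 102 FPKM under the luminal label. Genes of this list past the threshold in the upward direction were of other kinds. Ptgs2 and Chac1 are commonly used as markers of ferroptosis. Ptgs2, cyclooxygenase 2, rose from 89.0 to 182 FPKM and from 7.14 to 57.3 FPKM. Chac1, a glutathione-degrading enzyme, rose from 2.86 to 14.3 FPKM and from 0.726 to 8.25 FPKM. Cyb5r1, an oxidoreductase, rose from 14.4 to 49.8 FPKM and from 10.02 to 25.4 FPKM. Sat1, of polyamine breakdown, rose from 92.5 to 212 FPKM under the basal label, with a log2 change of 0.79 under the luminal label, and the lipoxygenase Alox12 rose from 1.05 to 3.53 FPKM under the luminal label.

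Among 18 defence genes, 13 were higher and 5 lower under the basal label and 14 and 4 under the luminal label, with medians of 0.48 and 0.26. For all genes tested the counts were 9057 and 8728, and 8115 and 9670, with medians of 0.01 and -0.02. The list was written with earlier results of these data known. Slc7a11, the cystine importer, had log2 changes of 4.37 and 3.49, the largest of the 95 genes under both labels. It shares a stretch of 373 bases with 1 other gene by the alignment used here, so part of its fragments is uncertain. The ligase subunits of glutathione synthesis Gclc and Gclm had changes of 1.26 and 1.88 under the basal label, and 1.43 and 0.37 under the luminal label. Nqo1, a quinone reductase, rose from 32.3 to 135 FPKM and from 143 to 470 FPKM, and Slc3a2, the partner of Slc7a11, rose from 62.0 to 149 FPKM under the basal label, with a change of 0.30 under the luminal label. Gpx4, which reduces lipid peroxides, was at 168 and 236 FPKM under the basal label and at 119 and 126 FPKM under the luminal label. Its log2 changes were 0.49 and 0.08, and 0.46 and 0.07 when summed with its 2 near-identical copies. Aifm2, which acts beside Gpx4 through coenzyme Q, had changes of 0.58 and 0.55.

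**Figure D5:**
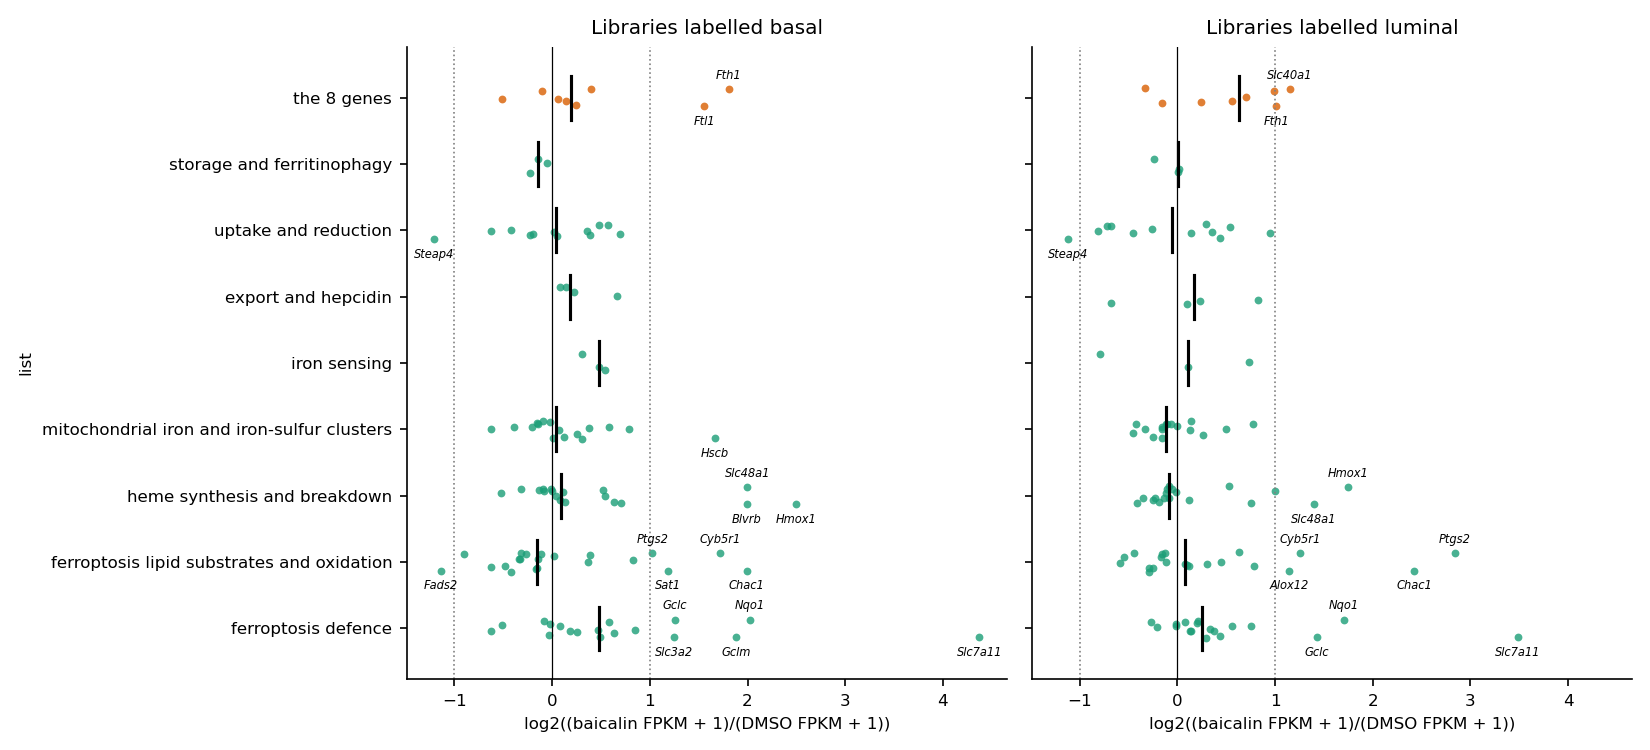
Log2 change of FPKM + 1 with baicalin for the 8 genes and the 95 tested genes of the 8 pathway lists, 1 point per gene, with a black bar at each list's median and dotted lines at the threshold of 1, for the libraries labelled basal (left) and luminal (right). Named points are past the threshold. Slc7a11 lies farthest to the right under both labels, at 4.37 and 3.49, and most genes of the other lists lie near 0.

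Some pathway genes passed the threshold between labels. With DMSO 8 of the 95 were higher by more than 1 in the library labelled luminal and 8 lower, and with baicalin 6 were higher and 6 lower. Of all genes tested, 4.71% were higher and 3.86% lower by more than 1 with DMSO, and 5.24% and 2.99% with baicalin. Of the 76 well-expressed pathway genes, 14 with DMSO and 11 with baicalin were past the threshold in either direction (18.4% and 14.5%). The shares of all well-expressed genes were 11.9% and 11.5%. Cp, ceruloplasmin, the ferroxidase that works with ferroportin, was at 194 and 214 FPKM under the basal label and at 26.0 and 27.9 FPKM under the luminal label, and its log2 changes with baicalin were 0.15 and 0.10. Cp and Slc40a1 therefore did not share their pattern across the 4 libraries.

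The genes nearest to each of the 8 in pattern were found by the Euclidean distance of centred log2(FPKM + 1) over the 4 libraries, among the 8554 well-expressed genes that code for protein. With 4 points such closeness is a description, and the points share their libraries. The 3 nearest to Fth1 were Unc5b, Sesn2 and Ddit3, at distances of 0.14, 0.26 and 0.26. The nearest to Ftl1 were Morn4, Zmat3 and Cyb5a, at 0.075, 0.15 and 0.20. Neither ferritin chain was among the 3 nearest to the other. Tfrc had Zkscan6 nearest, Slc11a2 had Plekhb2, Slc40a1 had Srgap1, Aco1 had Ostc, Ireb2 had Ints5 and Acsl4 had Met, at distances between 0.024 and 0.087. No gene of the 8 and no pathway gene stood among these neighbours.

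Promoter windows from RefSeq on GRCm38.p6, running from 250 bases before to 50 after a gene's start, were given for 6 of the 8 genes and not for Slc40a1 and Slc11a2. The core TGACNNNGC, a short form of the antioxidant response element, was searched on both strands. None of the 8 windows of these 6 genes held it, while 4071 of 32851 windows of all genes (12.4%) did. The absence of these letters from a short window says nothing about elements farther away.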

How the data were processed

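Per the labels and the paper's methods, poly(A) RNA was captured with oligo(dT) beads for stranded libraries. The authors aligned reads to GRCm38 with HISAT2, counted fragments with featureCounts on Ensembl release 94 and deposited FPKM for 54446 genes, with no further scaling between libraries stated. The submitters' processing notes also name Bowtie 0.12.2 and the build mm8 with no role. Whether featureCounts used strand is not given in the sources used here, so overlapping genes on opposite strands are uncertain.

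Exon lengths and positions came from GENCODE mouse release 21 (GRCm38) for 54409 genes. FPKM times exon length fell on steps of 1 fragment. Of genes with fewer than 8 fragments, 98.56% to 98.95% came out whole within 0.02 fragments, which gave the depth of each library. The depth was used for intervals only, since 1 library per condition allows no count test. Changes were log2 ratios over the 17787 genes above 0 in all 4 libraries, with a threshold of 1. The filter and threshold follow the paper's methods, which also used further samples and a test between groups. The pseudocount of 1 FPKM was chosen here. Near-identical copies had at least 95% identity over at least 200 bases and 50% of the shorter transcript. The named genes were the 8 genes, their copies and their 3 nearest genes in pattern, and, per pathway list, genes past the threshold with baicalin and those among the 3 with the largest change, not all of which are printed. The 8 genes, the lists and the markers were written with earlier results of these data known. Besides the iron lists, 6 marker lists were used, and the summed FPKM was between 2.60 and 10.4 for 6 fibroblast markers and between 0.876 and 3.46 for 5 endothelial markers. The alternatives were other pseudocounts, filters, thresholds and scalings, and sums over copies. Scripts were checked on simulated libraries in which 200 genes had been changed. Tools were BLAST+ 2.17.0, Python 3.11.15, scipy 1.17.1, numpy 2.4.6, matplotlib 3.10.9 and pandas 2.3.3. Other treatments of the study were not analysed here.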

Additional observations from a re-analysis of the deposited data

Results flagged for a closer look

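None of the 8 genes moved in opposite directions under the 2 labels beyond counting error, but 17 of the 95 pathway genes did, 7 of them past 0.3 (log2) under both. Of all genes tested with an exon length, 10.6% moved in opposite directions and 3.51% past 0.3, against 17.9% and 7.37% of the pathway genes, and among well-expressed genes, those reaching 5 FPKM in 1 or more libraries, 15.1% and 4.55% did. These 7 are given because the single pair of libraries of each label moved the opposite way, and the difference was not tested. Steap3, a ferric reductase of endosomes, had a log2 change of -0.62 under the basal label and 0.54 under the luminal label, a difference of 1.16. Alox12, a lipoxygenase, had -0.31 and 1.15, a difference of 1.46, at levels of at most 3.53 FPKM. The other 5 were higher with baicalin under the basal label and lower under the luminal label. Lcn2, which binds iron-loaded siderophores, had 0.48 and -0.45, a difference of -0.93, and Slc22a17, its receptor, had 0.39 and -0.81, a difference of -1.20. Epas1, a hypoxia-inducible factor whose 5′ UTR is known to carry an iron-responsive element, had 0.30 and -0.79, a difference of -1.10. Alad, of heme synthesis, had 0.70 and -0.35, a difference of -1.06, and Lyrm4, of iron-sulfur cluster assembly, had 0.30 and -0.33, a difference of -0.63.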

How the results depend on the processing

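Counts of genes past the threshold were recomputed under 11 alternatives, 1 of them (well-expressed genes, those reaching 5 FPKM in 1 or more libraries) chosen after seeing the data. Of 88 counts, 71 stayed within 1.5 times the value reported and 17 did not, most of them by construction of the threshold. The share of all genes moved more than these counts. With no pseudocount, 21.1% of all genes passed under the basal label and 17.4% under the luminal label. The pathway counts were then 19 and 15 of 95, so their shares no longer exceeded that of all genes. Among well-expressed genes, with the pseudocount of 1 FPKM, 15 and 9 of 76 pathway genes passed. The shares of all well-expressed genes were 8.23% and 6.06%. With a threshold of 2, none of the 8 genes passed under the basal or the luminal label (0 and 0), and 3, 3, 3 and 2 pathway genes passed under the basal label, under the luminal label, between labels with DMSO and between labels with baicalin (0.973%, 0.596%, 1.88% and 1.69% of all genes). With a threshold of 0.58 these pathway counts were 29, 25, 31 and 27 (15.2%, 12.5%, 21.7% and 20.4% of all genes), and 4 of the 8 genes passed under the luminal label, 3 between labels with DMSO and 2 with baicalin. Between labels with DMSO the count of 0 became 1 with a pseudocount of 0.1 and with none, and 2 with TPM scaling (19.6%, 27% and 14.5% of all genes), and with baicalin it became 1 with TPM scaling (14.2%). Of 160 log2 changes of the 8 genes under alternatives, 0 changed sign and 6 crossed the threshold. These were Ftl1 under the luminal label, at 1.01 after centring on the median ratio, Slc40a1 between labels with DMSO at -1.02, -1.03 and -1.10, and, with TPM scaling, Acsl4 with DMSO and Ftl1 with baicalin. The largest shift of any of these values was 0.19. No paired analysis was possible because each condition has 1 library and the labels carry no replicate numbers to pair, and for the same reason no library could be left out. Depth limits low genes, since 3 fragments on 1 kb of exon are near 0.15 FPKM.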

Other observations

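Of the 101 pathway genes, 6 were not above 0 in all libraries and enter no comparison. Ftmt, mitochondrial ferritin, was at 0 in all 4 libraries. Tfr2, the second transferrin receptor, had at most 0.1005 FPKM, against 23.3 to 48.2 FPKM for Tfrc. Hephl1, a ferroxidase, had at most 0.175 FPKM, the hepcidin gene Hamp2 at most 0.089 FPKM, the lipoxygenase Alox12b at most 0.319 FPKM and Acsl6 at most 0.005 FPKM.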
